A study of Mus musculus with 564 samples.

Results

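The CC chemokine genes Ccl2, Ccl3, Ccl4, Ccl5, Ccl6, Ccl7, Ccl9 and Ccl12 lie on mouse chromosome 11. The cis-regulatory elements (CREs) described here were taken by position around these 8 genes, which were chosen with earlier results of these data known. A CRE was taken when its centre lay within 25 kb of a RefSeq transcription start of 1 of these 8 genes in the genome build mm10, and it was assigned to the nearest of those starts. This gave 44 of the 59190 CREs measured, with 7 at Ccl2, 4 at Ccl7, 6 at Ccl12, 6 at Ccl5, 6 at Ccl9, 7 at Ccl6, 5 at Ccl3 and 3 at Ccl4. The signal was H3K27ac, the acetylation of lysine 27 on histone H3 that is found at promoters and enhancers in use, measured by ChIP-seq. Chemokine transcripts and secreted proteins were not measured in these libraries.

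The cells were bone marrow-derived macrophages (BMDMs), grown from the marrow of wild type male C57/BL6 mice aged 6 to 8 weeks. They were pre-treated for 1 h either with DMSO, the vehicle, or with a clinical kinase inhibitor (CKI) at its own concentration, of which there were 58, and were then left unstimulated (UT) or given 10 ng/mL of lipopolysaccharide (LPS) or of interleukin 4 (IL-4) for 30 min, 1 h, 2 h or 4 h. The 18 DMSO libraries formed 9 groups of 2 replicates, and the 546 CKI libraries formed 474 groups of 1 library and 36 groups of 2. Nothing in the labels ties a replicate to its own animal or culture, so the p-values measure the spread between libraries, which may be technical.

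CC chemokines are small secreted proteins that steer leukocytes along a gradient through G protein-coupled receptors. Ccl2, Ccl7 and Ccl12 act on Ccr2 and draw inflammatory monocytes out of the marrow and into tissue, Ccl3, Ccl4 and Ccl5 attract monocytes and T cells, and Ccl6 and Ccl9 act on Ccr1. LPS is a component of the bacterial cell wall that macrophages sense through TLR4, which leads to activation of NF-kB, AP-1 and interferon regulatory factors. IL-4 is a type 2 cytokine that signals through JAK kinases to STAT6. In macrophages several of these chemokines are early products of the response to LPS.

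The 8 genes form a pair of clusters on chromosome 11. Ccl2 (start at 82035577), Ccl7 (82045712) and Ccl12 (82101845) read along the plus strand in the first. In the second, Ccl5 (83530518), Ccl9 (83578636), Ccl6 (83593087) and Ccl3 (83649378) read along the minus strand and Ccl4 (83662584) along the plus strand. Each gene had a CRE that overlapped a RefSeq start, called its start CRE here. These lay at 82034523-82036469 for Ccl2, 82044854-82046451 for Ccl7, 82099605-82102487 for Ccl12, 83529723-83537515 for Ccl5, 83576399-83579397 for Ccl9, 83592254-83593866 for Ccl6, 83645930-83650679 for Ccl3 and 83661647-83666821 for Ccl4. The start CRE of Ccl5 was 7793 bp wide and reached well upstream of the gene, and that of Ccl3 also held a predicted start of Ccl4. Of the 44 CREs, 13 overlapped a coding exon and 19 lay within 25 kb of 2 or more of the 8 genes, so assignment to 1 gene is by distance alone. The CRE 14.4 kb downstream of the Ccl12 start covers exons of Ccl8, and the CRE 5.3 kb downstream of the Ccl5 start covers exons of Ccl5 and the start of Heatr9.

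The 250 bases before the start are shown for the 4 chemokine genes whose promoter was in the RefSeq table used (build GRCm38.p6, which has the coordinates of mm10), because the start CREs over them took different courses. Capitals mark matches, on either strand, to the 6 motifs searched: NF-kB, the ISRE bound by interferon regulatory factors, AP-1 (TGANTCA), CEBP (TTGCNNAA), the TATA box (TATAAA) and PU.1 (GAGGAA), the lineage factor of macrophages. Each sequence reads 5′ to 3′ in the direction of its gene.
Ccl12, chr11:82101595-82101844, plus strand: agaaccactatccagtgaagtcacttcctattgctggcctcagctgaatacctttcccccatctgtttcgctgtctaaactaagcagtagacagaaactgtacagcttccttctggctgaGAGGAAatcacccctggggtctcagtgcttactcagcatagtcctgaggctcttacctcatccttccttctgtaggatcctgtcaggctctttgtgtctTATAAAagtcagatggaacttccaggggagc
Ccl9, chr11:83578637-83578886, minus strand: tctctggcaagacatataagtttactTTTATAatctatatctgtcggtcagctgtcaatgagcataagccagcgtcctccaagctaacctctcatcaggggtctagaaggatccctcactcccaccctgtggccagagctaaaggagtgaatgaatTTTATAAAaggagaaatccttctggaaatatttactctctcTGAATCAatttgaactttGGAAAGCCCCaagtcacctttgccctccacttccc
Ccl6, chr11:83593088-83593337, minus strand: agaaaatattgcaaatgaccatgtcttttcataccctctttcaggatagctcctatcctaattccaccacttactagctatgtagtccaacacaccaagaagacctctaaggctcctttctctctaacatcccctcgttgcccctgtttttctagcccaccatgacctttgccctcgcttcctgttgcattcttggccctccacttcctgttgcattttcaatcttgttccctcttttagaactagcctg
Ccl3, chr11:83649379-83649628, minus strand: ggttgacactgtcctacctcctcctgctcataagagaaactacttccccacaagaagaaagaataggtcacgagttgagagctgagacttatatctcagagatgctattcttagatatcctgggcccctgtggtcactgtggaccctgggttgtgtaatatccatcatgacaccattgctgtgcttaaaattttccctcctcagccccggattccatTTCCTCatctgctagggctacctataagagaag

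In the Ccl12 promoter a TATA box match stood 31 to 26 bases before the start and a PU.1 match lay farther upstream. The Ccl9 promoter held an NF-kB match 35 to 26 bases before the start, an AP-1 match 53 to 47 bases before it and 3 TATA box matches, of which 2 overlap each other. The Ccl3 promoter held 1 PU.1 match on the opposite strand, and no letters of the 6 motifs were found in that of Ccl6. Of 32851 promoter windows of this length, 7.3% held an NF-kB match, 6.7% an AP-1 match, 12.4% a TATA box match and 23.3% a PU.1 match. A match is a run of letters and does not show that the factor binds there.

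Farther from the starts, the central 300 bases are shown for the CRE that gained most after LPS at Ccl5, Ccl12, Ccl2 and Ccl4 among those with no coding exon and no other gene in them. They are read on the plus strand of mm10, with motif matches in capitals.
Ccl5, 20 kb upstream, chr11:83550400-83550699: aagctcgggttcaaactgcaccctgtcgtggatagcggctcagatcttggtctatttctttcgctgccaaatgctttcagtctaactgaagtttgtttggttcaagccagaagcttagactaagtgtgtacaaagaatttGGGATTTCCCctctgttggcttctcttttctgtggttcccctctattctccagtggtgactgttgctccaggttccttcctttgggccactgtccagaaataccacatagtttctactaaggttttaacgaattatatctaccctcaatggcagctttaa
Ccl12, 13.7 kb upstream, chr11:82088013-82088312: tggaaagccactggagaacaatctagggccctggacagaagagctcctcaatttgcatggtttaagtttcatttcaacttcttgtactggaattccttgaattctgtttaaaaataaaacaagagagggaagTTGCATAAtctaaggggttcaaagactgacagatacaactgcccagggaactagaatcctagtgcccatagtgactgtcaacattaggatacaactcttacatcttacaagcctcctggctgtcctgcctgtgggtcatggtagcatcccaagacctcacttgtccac
Ccl2, 24.2 kb upstream, chr11:82011248-82011547: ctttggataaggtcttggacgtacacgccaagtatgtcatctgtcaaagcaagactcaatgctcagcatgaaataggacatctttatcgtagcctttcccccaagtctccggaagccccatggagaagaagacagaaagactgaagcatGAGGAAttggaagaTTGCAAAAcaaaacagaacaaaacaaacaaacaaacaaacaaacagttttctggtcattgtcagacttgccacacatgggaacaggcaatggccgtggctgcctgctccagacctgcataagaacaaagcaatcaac
Ccl4, 5.2 kb upstream, chr11:83657263-83657562: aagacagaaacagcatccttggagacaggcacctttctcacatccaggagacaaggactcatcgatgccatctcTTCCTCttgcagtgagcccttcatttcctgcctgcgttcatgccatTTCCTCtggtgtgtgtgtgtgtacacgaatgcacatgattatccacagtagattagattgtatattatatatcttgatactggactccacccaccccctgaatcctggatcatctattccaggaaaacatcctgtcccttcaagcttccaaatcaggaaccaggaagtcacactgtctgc

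The Ccl5 element carried 1 NF-kB match, the Ccl12 element 1 CEBP match, the Ccl2 element 1 CEBP and 1 PU.1 match, and the Ccl4 element 2 PU.1 matches. Over the central 300 bases of all 44 chemokine CREs, 5 (11.4%) held an NF-kB match against 9% of all CREs. An ISRE match was found in 4 (9.1%) against 5.1%, an AP-1 match in 9 (20.5%) against 20.2%, and a PU.1 match in 17 (38.6%) against 41.2%. CEBP stood at 5 (11.4%) against 14.7% and the TATA box at 7 (15.9%) against 13.4%. These shares are descriptions over few CREs, and no test was made of them.

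The deposited values are normalized read counts per CRE. Their scaled totals ran from 4066894 to 12391409 per library, and the number of reads in CREs, estimated from the value of 1 read, from 173059 to 6632000 in the 551 libraries where it could be estimated. Contrast, the ratio of the median in the top 10% of CREs to the median in the bottom 10%, was 53 to 134 in the DMSO libraries (median 75.1) and 3.34 to 67.2 in the CKI libraries (median 17.6). All 11 macrophage marker genes on the list used, among them Spi1, Csf1r and Cd68, had a start CRE in the table, with 102 to 370 normalized reads per kb in UT cells. None of the 6 markers of T cells, 4 of B cells, 3 of mast cells and 4 of fibroblasts had one, and the 1 of 5 neutrophil and 1 of 4 dendritic cell markers that did (S100a8 and Flt3) stood at 7.57 and 4.31 per kb.

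In UT cells the level per kb of the start CRE was highest at Ccl9 (257 normalized reads per kb, mean of 2 libraries), followed by Ccl6 (157), Ccl12 (124), Ccl3 (113), Ccl7 (102), Ccl4 (81.5), Ccl2 (52.9) and Ccl5 (11.4). The replicates of Ccl3 overlapped those of Ccl12 and those of Ccl7, and its place between them cannot be read. Ccl5, the chemokine with the weakest mark at rest, came to 446 per kb after 2 h of LPS and then stood level with Ccl12 (448 per kb), while Ccl6 had gone down to 53.3 per kb.

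LPS changed H3K27ac at most of the chemokine CREs, with calls that were all upward at 7 genes and in both directions at Ccl6. CREs were called when an F-test of limma over the 4 times against UT gave an adjusted p under 0.01 and the log2 difference of (value + 5) was over 1 in size at 1 or more times. By this rule 36 of 44 chemokine CREs (81.8%) were LPS-regulated, 32 higher and 4 lower, where 53.5% of all CREs tested were regulated, 29% higher and 24.6% lower. All 7 CREs of Ccl2, all 6 of Ccl12, all 6 of Ccl5 and all 3 of Ccl4 rose, as did 3 of 4 at Ccl7, 3 of 6 at Ccl9 and 1 of 5 at Ccl3. At Ccl6, 3 rose and 4 fell. The median log2 difference over the chemokine CREs was 0.88 at 30 min, 1.07 at 1 h, 0.87 at 2 h and 0.79 at 4 h, beside 0.05, 0.09, 0.02 and 0.08 over all CREs.

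The rises did not come at 1 time. Their largest difference was reached at 30 min in 5 CREs, at 1 h in 9, at 2 h in 11 and at 4 h in 7, and the genes differed in this. At Ccl2, 6 of 7 CREs were highest at 30 min or 1 h. At Ccl12 and Ccl5, 9 of 12 were highest at 2 h. The 4 falls at Ccl6 were all deepest at 2 h.

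Ccl5, whose product is also known as RANTES, changed most. Its start CRE held 98 and 80 normalized reads in the UT libraries, 1163 and 1381 at 30 min, 2418 and 2324 at 1 h, 3373 and 3576 at 2 h, and 2937 and 2713 at 4 h after LPS. Every LPS library stood far above both UT libraries. The log2 difference at 2 h was 5.22 (SE 0.09, adjusted p = 1.13e-30 by limma), 39-fold on the means. The whole neighbourhood moved with it, since the CRE 5.3 kb downstream of the start rose by 4.64 at 4 h (11 and 5 in UT, 329 and 293 at 4 h), and the CRE 13.9 kb upstream by 4.12 at 2 h (55 and 39 in UT, 885 and 897 at 2 h). These 3 were the largest rises among the chemokine CREs. The weakest of the 6, 13.1 kb downstream, held 2 and 3 in UT and 17 and 22 at 1 h, and 7.3% of its sequence words of 51 bases, the read length, also occur elsewhere in the genome.

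Ccl2, the best known attractant of monocytes, rose early at distal elements and less at the start itself. The Ccl2 start CRE went from 108 and 98 in UT to 213 and 189 at 30 min and 254 and 250 at 1 h, and was back at 122 and 101 at 2 h. It was highest at 1 h, by a log2 difference of 1.25 (SE 0.17, adjusted p = 6.88e-08, limma). The CRE 24.2 kb upstream of Ccl2 went from 87 and 72 to 738 and 788 at 1 h, a log2 difference of 3.19, and then to 197 and 203 at 2 h. In contrast, the CRE 2.8 kb downstream, over exons of Ccl2, held 122 and 127 at 30 min and climbed to 609 and 486 at 4 h. At Ccl7, next to it, the rises were smaller, and the start CRE had 176 and 151 in UT and 300 and 275 at 4 h, a log2 difference of 0.80 that did not reach the threshold of 1 (adjusted p = 3.43e-04, limma).

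Ccl12, which in mice shares the receptor of Ccl2, was highest later, though already up at 30 min. Its start CRE held 383 and 331 in UT, 688 and 724 at 30 min, 771 and 678 at 1 h, 1294 and 1292 at 2 h, and 1166 and 1054 at 4 h. Every LPS library lay above both UT libraries, and the log2 difference at 2 h was 1.85 (SE 0.10, adjusted p = 8.64e-17, limma). The CRE 13.7 kb upstream held 53 and 46 in UT, 84 and 90 at 30 min and 729 and 683 at 2 h, a log2 difference of 3.71. The CRE over the Ccl8 exons, 14.4 kb downstream, went from 9 and 11 to 250 and 231 at 2 h. Ccl8 encodes a further monocyte attractant.

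Ccl3 and Ccl4, the macrophage inflammatory proteins 1-alpha and 1-beta, are neighbours that are read in opposite directions. Their start CREs had similar courses but unlike sizes. The Ccl4 start CRE held 425 and 419 in UT, 757 and 836 at 30 min, 970 and 866 at 1 h, 1162 and 1083 at 2 h, and 1397 and 1170 at 4 h, a log2 difference of 1.59 at 4 h (SE 0.10, adjusted p = 3.49e-15, limma). The element between the genes, 5.2 kb upstream of Ccl4, rose further, from 278 and 258 to 2193 and 2136 at 2 h (log2 difference 2.99). The Ccl3 start CRE, which was already at 566 and 512 in UT, stood at 893 and 836 at 4 h, a log2 difference of 0.68 that lay under the threshold although its adjusted p was 5.6e-06 (limma). Every LPS library of this CRE lay above both UT libraries.

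Ccl9 and Ccl6, both ligands of Ccr1, sit side by side and took different courses. The Ccl9 start CRE held 764 and 779 in UT, 911 and 1049 at 30 min and 835 and 683 at 4 h, and its largest log2 difference was 0.35 at 1 h, under the threshold. The Ccl9 CRE 2.4 kb upstream rose from 72 and 78 to 320 and 451 at 30 min (log2 difference 2.27). The Ccl9 CRE 7.5 kb downstream held 292 and 291 at 30 min and 292 and 272 at 2 h against 529 and 561 in UT, below UT at all 4 times, and its log2 difference of -0.94 at 2 h missed the threshold of 1 (adjusted p = 4.18e-07, limma). Of the words of 51 bases in the CRE 2.4 kb upstream, 11.3% occur elsewhere, and reads from such copies cannot be told apart. The Ccl6 start CRE fell from 245 and 263 in UT to 124 and 141 at 30 min, 191 and 162 at 1 h, 75 and 97 at 2 h, and 136 and 117 at 4 h. All 8 LPS libraries lay below both UT libraries, and the log2 difference at 2 h was -1.52 (SE 0.18, adjusted p = 7.03e-08, limma). The 3 largest falls were all at Ccl6: the start CRE, the CRE 23.2 kb upstream (251 and 257 in UT, 61 and 89 at 2 h, log2 difference -1.72) and the CRE 15.2 kb upstream (72 and 84 in UT, 26 and 26 at 2 h, log2 difference -1.42). Without UT replicate 2 the call of the last was lost (log2 difference -1.31, adjusted p = 0.0112, limma), and 28 of 44 chemokine CREs were called.

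**Figure D1:**
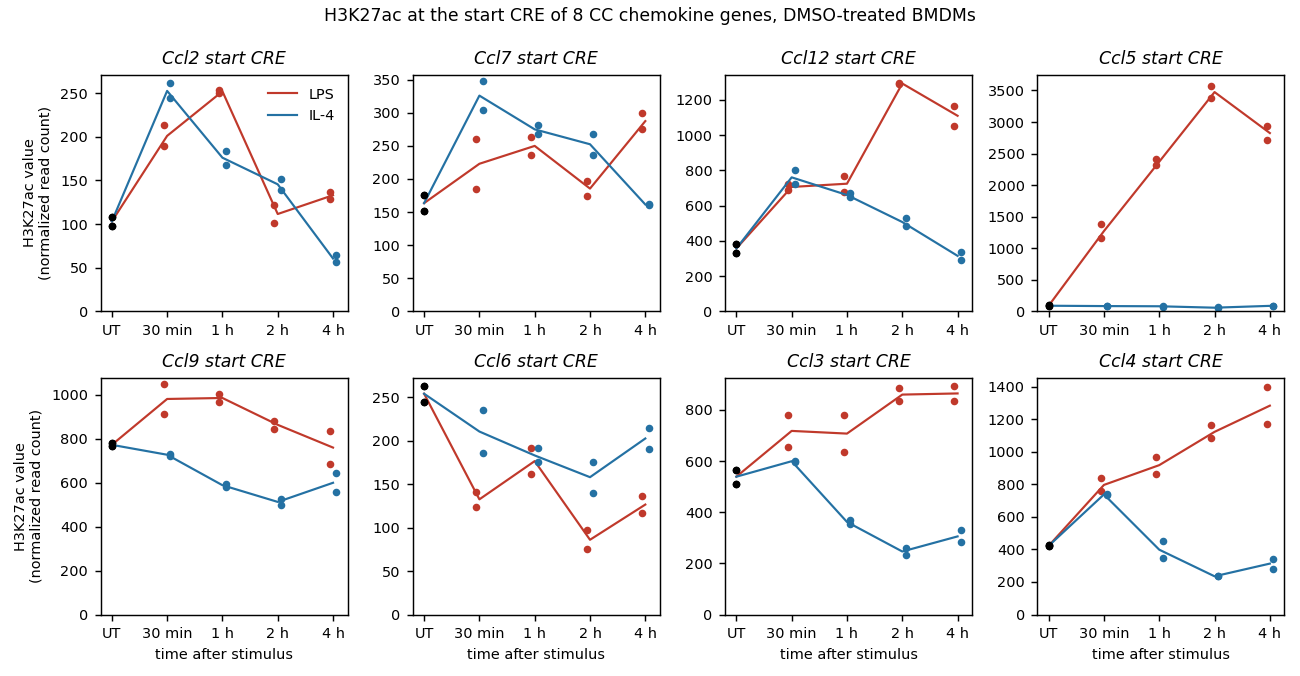
H3K27ac at the start CRE of each of the 8 chemokine genes in DMSO-treated BMDMs. The x axis gives the time after the stimulus and the y axis the normalized read count per CRE from 0, points are the 2 libraries of a group, and lines join the group means for LPS (red) and IL-4 (blue) from the shared UT libraries (black). Ccl5 goes from 98 and 80 to 3373 and 3576 after 2 h of LPS and lies near UT after IL-4, whereas Ccl2, Ccl12 and Ccl4 lie above UT 30 min after either stimulus and part later.

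IL-4 gave rises at Ccl2, Ccl12 and a few other CREs that were mostly largest at 30 min, and falls at Ccl3 and Ccl6 that were deepest at 2 h, and it left most of Ccl5 and all of Ccl9 without a call. By the same rule 23 of 43 chemokine CREs tested (53.5%) were IL-4-regulated, 17 higher and 6 lower, where 24.7% of all CREs were regulated, 13.6% higher and 11% lower. The CRE not tested, 13.1 kb downstream of Ccl5, had a mean value under 10. Of the 17 rises, 15 were largest at 30 min, 1 at 1 h and 1 at 4 h. All 6 falls were deepest at 2 h. The median log2 difference over the chemokine CREs went from 0.80 at 30 min to 0.33 at 1 h, -0.12 at 2 h and -0.18 at 4 h, against 0.09, 0.03, -0.03 and 0.05 over all CREs.

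All 7 CREs of Ccl2 rose after IL-4 and all 7 were highest at 30 min. The start CRE held 108 and 98 in UT, 244 and 261 at 30 min, 184 and 168 at 1 h, 139 and 152 at 2 h, and 56 and 65 at 4 h. Its log2 difference at 30 min was 1.25 (SE 0.16, adjusted p = 5.13e-14, limma), the same size as after 1 h of LPS. At 4 h both libraries lay below both UT libraries. The CRE 24.2 kb upstream rose from 87 and 72 to 602 and 541 at 30 min, a log2 difference of 2.77 and the largest after IL-4, and the CRE 2.9 kb upstream rose by 2.08, from 114 and 71 to 372 and 421.

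All 6 CREs of Ccl12 rose as well. The start CRE held 721 and 800 at 30 min, 649 and 672 at 1 h, 485 and 529 at 2 h, and 337 and 293 at 4 h, beside 383 and 331 in UT. Its log2 difference of 1.08 at 30 min (SE 0.10, adjusted p = 4.3e-16, limma) lay close to the threshold, and without UT replicate 2 it came to 0.98 and was not called. The CRE 13.7 kb upstream of Ccl12 rose by 2.28 at 30 min, from 53 and 46 to 279 and 242. At 4 of the 6 Ccl12 CREs (23.6, 13.7 and 9.4 kb upstream and 14.4 kb downstream) both libraries lay above both UT libraries at all 4 times. The share of all CREs that did so was not counted. At Ccl7, 1 of 4 CREs rose, and the start CRE held 304 and 348 at 30 min against 176 and 151 in UT, a log2 difference of 0.97 that missed the threshold (adjusted p = 1.1e-09, limma).

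The start CRE of Ccl3 lay below the UT level from 1 h on and that of Ccl4 from 2 h on. The Ccl3 start CRE held 597 and 602 at 30 min, 353 and 371 at 1 h, 259 and 234 at 2 h, and 329 and 282 at 4 h, beside 566 and 512 in UT. It fell by 1.11 at 2 h on the log2 scale (SE 0.11, adjusted p = 6.71e-15, limma), and the CRE 9.1 kb downstream, which fell most of all chemokine CREs after IL-4, fell by 1.64 (536 and 485 in UT, 134 and 190 at 2 h). The Ccl4 start CRE was above UT early and below it later, with 425 and 419 in UT, 735 and 741 at 30 min and 234 and 236 at 2 h, and neither its 0.80 at 30 min nor its -0.83 at 2 h passed the threshold of 1. Its upstream neighbour at 5.2 kb rose by 1.80 at 30 min, from 278 and 258 to 954 and 931, and was still above UT at 4 h (447 and 452).

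At Ccl6, 4 of 7 CREs fell after IL-4. The CREs 11.2 kb upstream (145 and 147 in UT, 50 and 49 at 2 h, log2 difference -1.47) and 23.2 kb upstream (251 and 257 in UT, 100 and 96 at 2 h, log2 difference -1.33) fell most. The start CRE held 140 and 176 at 2 h against 245 and 263 in UT, a log2 difference of -0.68, and was not called. None of the 6 Ccl9 CREs was called, with 497 and 527 at the start CRE at 2 h against 764 and 779 in UT. The Ccl5 start CRE held 87 and 80 at 30 min, 74 and 87 at 1 h, 47 and 69 at 2 h, and 88 and 86 at 4 h, which overlapped the 98 and 80 of UT at each time other than 2 h. Of the other Ccl5 CREs, the one 5.3 kb downstream was called higher, with 40 and 30 at 4 h against 11 and 5, and without UT replicate 2 it was not (adjusted p = 0.0507, limma).

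Set side by side, with UT libraries that both courses share, 17 chemokine CREs were higher after both stimuli, 12 were higher after LPS and not called after IL-4, 3 had opposite calls, up with LPS and down with IL-4, and 1 was lower after both. A further 3 were lower after LPS and not called after IL-4, 2 were lower with IL-4 alone, and 6 were called after neither. The 17 held all 7 CREs of Ccl2 and all 6 of Ccl12. The 3 with opposite calls lay 4.8, 7.7 and 11.2 kb upstream of Ccl6, and those calls were close to the threshold: after LPS the first was lost without UT replicate 2 (log2 difference 0.91) and also without either 1 h library (1.06 at an adjusted p of 0.0395 by limma, and 0.99), the second without UT replicate 2 (0.92) or LPS 4 h replicate 1 (0.85) and the third without LPS 30 min replicate 2 (0.99). After IL-4 the first was lost without UT replicate 1 (-0.93) or IL-4 2 h replicate 2 (-0.84), and the second without UT replicate 1 (-0.92) or IL-4 2 h replicate 1 (-0.996).

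**Figure D2:**
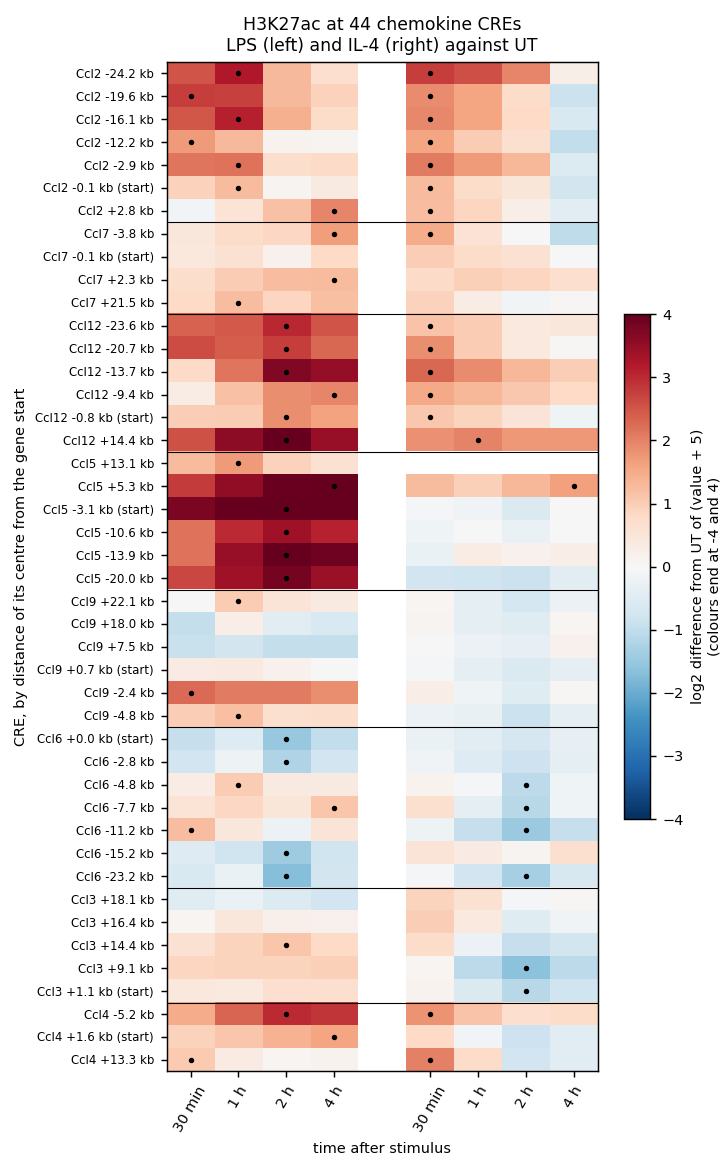
Log2 difference from UT of (value + 5) at the 44 chemokine CREs (rows, by gene and by distance of the centre from the start) at 4 times after LPS (left) and IL-4 (right) in DMSO-treated BMDMs. A dot marks the time of the largest difference of each CRE that passed the test, and the blank row under IL-4 was not tested. After LPS 32 CREs rose and 4 fell, and after IL-4 17 rose, 15 of them with the dot at 30 min, and 6 fell.

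The stimuli were also compared directly, time by time, in all 18 DMSO libraries. Of 43 chemokine CREs tested, 34 (79.1%) differed between LPS and IL-4, 29 higher after LPS and 5 lower, where 58.4% of all CREs differed, 29.2% higher and 29.2% lower. Of the 29, 16 differed most at 2 h, 11 at 4 h, 2 at 1 h and 0 at 30 min. The median log2 difference between LPS and IL-4 over the chemokine CREs was -0.07 at 30 min, 0.95 at 1 h, 0.97 at 2 h and 1.33 at 4 h. At 30 min the start CREs of Ccl2, Ccl12, Ccl3 and Ccl4 differed by -0.32, -0.11, 0.25 and 0.11, whereas that of Ccl5 already differed by 3.85.

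The start CREs of Ccl5 (log2 difference 5.81 at 2 h, adjusted p = 3.53e-38), Ccl4 (2.23 at 2 h, adjusted p = 7.32e-25), Ccl12 (1.80 at 4 h, adjusted p = 5.11e-21), Ccl3 (1.78 at 2 h, adjusted p = 3.23e-21) and Ccl2 (1.08 at 4 h, adjusted p = 2.38e-07) were higher after LPS by limma. The call of Ccl2 was lost without IL-4 4 h replicate 1 (0.98). Those of Ccl7 (0.81 at 4 h), Ccl9 (0.75 at 2 h) and Ccl6 (-0.84 at 2 h) did not reach the threshold. Each CRE is counted at the time of its largest difference, and some turned in between. The 5 CREs counted as higher after IL-4 lay 9.4 kb upstream of Ccl12 (-1.21 at 30 min), 18 and 7.5 kb downstream of Ccl9 (-1.07 at 30 min and -1.10 at 4 h), 15.2 kb upstream of Ccl6 (-1.51 at 2 h) and 18.1 kb downstream of Ccl3 (-1.36 at 30 min). The first of these stood higher after LPS at 4 h (1.15). Conversely, the CREs 13.7 kb upstream of Ccl12 and 2.8 kb downstream of Ccl2, both counted as higher after LPS, were lower at 30 min (-1.53 and -1.36).

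Among the start CREs themselves, Ccl3 and Ccl4 had the most similar course over the 9 DMSO group means (Pearson r 0.968), and Ccl12 and Ccl6 the most opposite (r -0.789). Ccl2 and Ccl7 stood at 0.773 and Ccl2 and Ccl5 at 0.190. These correlations are over 9 means that share their libraries and are given as a description. Among 8432 start CREs of other protein-coding genes, the course of Ccl5 was most like those of Tm9sf4 (r 0.993), Rassf4 (0.992) and Cxcl10 (0.992), a chemokine induced by interferon. Ccl2 was most like Rapgef5 (0.937), Fosl2 (0.931) and Ets2 (0.897), Ccl7 most like Ch25h (0.904), and Ccl12 most like Fcrlb (0.973). Ccl3 stood closest to Alcam, Cxcl2, which attracts neutrophils, and Clec4e (0.961 each), Ccl4 to Msr1 (0.957), Ccl9 to Tlr2 (0.967), a receptor for bacterial lipopeptides, and Ccl6 to Mrpl33 (0.974).

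Of 26 other ligands and receptors of the CC family, 9 had a start CRE in the table. After LPS 3 of these rose and 2 fell, where 53.5% of all CREs tested were regulated, 29% higher and 24.6% lower. With 9 CREs these counts are a description, and no test was made of them. Ccl22, a ligand of Ccr4, went from 12 and 11 in UT to 94 and 95 at 1 h (log2 difference 2.59), and Ccrl2, an atypical receptor, from 265 and 298 to 1755 and 1867 at 2 h (2.67). Ccr10 rose by 1.45 at 1 h from 10 and 10. Ccl24, an eosinophil attractant, fell from 62 and 51 to 8 and 10 at 4 h (-2.13), and Ccr1, the receptor of Ccl6 and Ccl9, from 151 and 152 to 51 and 44 at 2 h (-1.58). After IL-4 only Ccl24 among these 9 rose, to 186 and 218 at 1 h (1.75), and Ccr1 (-1.57 at 4 h) and Ccr3 (-1.35 at 4 h, from 863 and 771 to 325 and 310) fell. Over all CREs 24.7% were regulated by IL-4, 13.6% higher and 11% lower. Ccl22 was not tested after IL-4 because its mean was under 10.

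In CKI-treated cells the start CREs of Ccl5, Ccl4 and Ccl12 lay above their UT level after 2 h of LPS with each CKI that had such a library. After 2 h of LPS the Ccl5 start CRE held 1217 to 3575 normalized reads across the 55 CKIs with such a library (median 2061), and was at least 2 times its own UT value in 55 of 55. The lowest was Omipalisib and the highest GSK461364. The Ccl4 start CRE and the CRE 5.2 kb upstream of it were above their own UT value in 55 of 55, and the Ccl12 start CRE in 55 of 55. For Ccl6 the direction was the opposite, and its start CRE was above its own UT value after 2 h of LPS in 0 of 55. The other genes were mixed. At 2 h of LPS the Ccl3 start CRE was above its own UT value in 48 of 55, that of Ccl7 in 23, Ccl9 in 22 and Ccl2 in 12. After 2 h of IL-4 the Ccl3 start CRE was above its own UT value in 0 of 56 and that of Ccl4 in 1 of 56, as in DMSO, where both had gone below UT. The Ccl2 start CRE was above its own UT value in 55 of 58 CKIs 30 min after IL-4 and in 10 of 55 at 4 h. Most of these are single libraries without a replicate.

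Against DMSO, start CREs of the chemokine genes were lower in many CKIs. In 1 model over all LPS and UT libraries, with time as a factor and 1 coefficient for each CKI over all times, UT included, a CRE was called at an adjusted p under 0.05 within the CKI and a log2 difference over 0.5 in size. Of the 2552 pairs of chemokine CRE and CKI, 748 were called after LPS, 542 lower and 206 higher, where 36.4% of all pairs of the table were called, 4.04% lower and 32.3% higher. Over the start CREs, 209 of 464 pairs were lower and 0 higher. The start CRE of Ccl9 was lower in 48 of 58 CKIs, that of Ccl12 in 41, Ccl4 in 34, Ccl7 in 33, Ccl3 in 30, Ccl2 in 14, Ccl5 in 7 and Ccl6 in 2. The CREs 13.1 and 5.3 kb downstream of Ccl5 were higher in 51 and 48 CKIs. The CKIs with most chemokine CREs lower were AZD2014 and Omipalisib (26 of 44 each, where 13.2% and 11.4% of all CREs were lower) and X396 (25, where 8.35% were lower), all of run 1, where a run is a set of CKIs that stand together in the columns of the table, and those with most higher were GDC0994, IMD0354 and Neratinib (8 of 44 each). Over all CREs 48.8%, 37.8% and 54.1% were higher with these 3 CKIs.

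The libraries compared also differed in contrast. The CKI libraries had a median contrast of 17.6 against 75.1 in DMSO, and the median of all CREs lay above DMSO for each CKI after LPS, by a log2 difference of 0.18 to 0.73. With library contrast as a covariate, chosen after the data were seen, 146 pairs were called after LPS, 87 of them higher. With every library rescaled to its median ratio there were 994, of which 129 were higher, and with quantile normalization 198, of which 30 were higher. DMSO libraries stood outside the 6 runs of columns, so the pre-treatment, the run and the contrast cannot be told apart in this comparison.

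After IL-4, 809 pairs differed from DMSO, 312 lower and 497 higher, where 39.2% of all pairs were called, 3.03% lower and 36.2% higher. The Ccl5 start CRE was higher in 58 of 58 CKIs, by 0.54 (Ruxolitinib) to 1.82 (X396) on the log2 scale. It held 86 to 364 normalized reads across CKIs at 2 h of IL-4 against 47 and 69 in DMSO, but it was already above DMSO before any stimulus (108 to 409 in UT against 98 and 80), and its median ratio to the own UT value at 2 h was 1.01. The call of Ruxolitinib was lost without DMSO replicate 1 (0.51, adjusted p = 0.128) or replicate 2 (0.57, adjusted p = 0.0953, limma), and became -0.09 with contrast as a covariate. At the start CREs of Ccl7, Ccl12 and Ccl9, 46, 37 and 37 of 58 CKIs were called lower than DMSO. Most chemokine CREs were lower with BMS911543 (18), Omipalisib (14) and Pimasertib (14), where 6.38%, 8.8% and 4.95% of all CREs were lower. Most were higher with Silmitasertib (15), Mubritinib (14) and Talmapimod (14), where 59.7%, 48.6% and 53.9% of all CREs were higher. With contrast as a covariate 423 pairs were called, 71 higher, with rescaling 1035, 339 higher, and with quantile normalization 331, 94 higher, so the share of higher calls depends on the scaling.

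**Figure D3:**
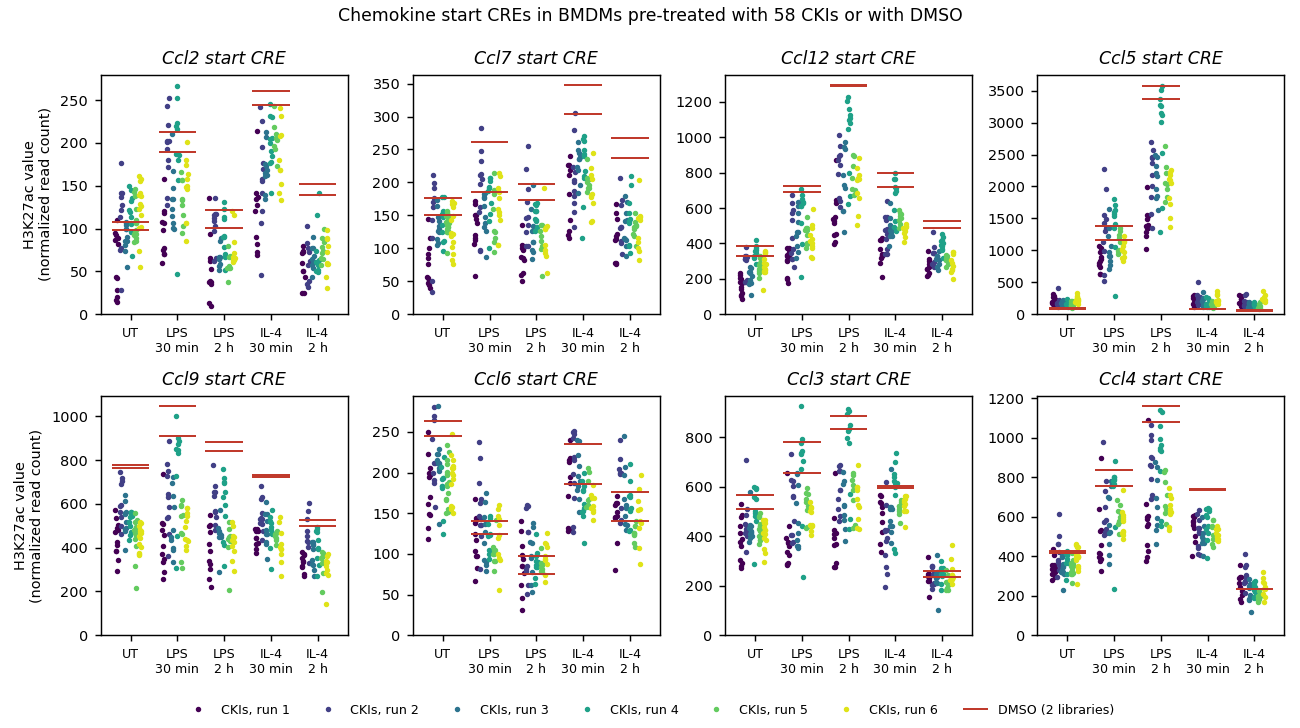
Normalized read count (y axis, from 0) at the start CRE of each chemokine gene in UT cells and after 30 min and 2 h of LPS or IL-4. Each point is 1 library of a CKI, coloured and set side by side by run of table columns, and the red lines are the 2 DMSO libraries. At Ccl5 after 2 h of LPS the CKIs, each as the mean of its libraries, lie between 1217 and 3575 beside 3373 and 3576 in DMSO. The runs sit at different levels, with the highest median in run 4, which also holds PH797804 at 1291.

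A comparison that does not lean on DMSO set each CKI against the other CKIs of its own run, with time and run in the model. Few chemokine CREs then differed. After LPS 43 of 2552 pairs were called, 39 lower and 4 higher, where 1.21% of all pairs were called, 0.43% lower and 0.779% higher. After IL-4 there were 31, 17 lower and 14 higher, where 1.31% were called, 0.436% lower and 0.874% higher. Runs hold 8 or 10 CKIs and are used here only as a technical batch. The median contrast of the 6 runs was 11.2 to 35.1. With 47 of the 58 CKIs no chemokine CRE was called after LPS, and with 49 none after IL-4.

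PH797804, an inhibitor of p38, accounted for 21 of the 43 calls after LPS, 19 lower and 2 higher. At the Ccl5 start CRE its libraries held 282 at 30 min, 1558 at 1 h, 1291 at 2 h and 725 at 4 h after LPS, while the other CKIs of run 4 held 1058 to 1811, 1303 to 2610, 1667 to 3575 and 1389 to 2945. The log2 difference was -1.16 (SE 0.15, adjusted p = 1.51e-11, limma). Ccl3 (-0.91), Ccl4 (-0.81), Ccl9 (-0.70), Ccl2 (-0.65) and Ccl12 (-0.60) were lower at their start CREs too. These differences run over all times, UT included. In UT the Ccl3 start CRE already held 288 with PH797804 against 461 to 601 with the other CKIs of run 4. That of Ccl4 held 279 in UT against 311 to 427, and that of Ccl5 139 against 108 to 234. The PH797804 libraries stood apart over the whole table, where 12% of all CREs were lower and 31% higher than in the rest of the run. Their contrast was 3.37 to 14.7 against a run median of 35.1, and the LPS 30 min library held an estimated 173059 reads. With contrast as a covariate the start CREs of Ccl5 (-0.79) and Ccl3 (-0.52) were still called and those of Ccl2 (-0.38), Ccl4 (-0.36) and Ccl9 (-0.20) were not, while the value of Ccl12 in that model was not followed, and without PH797804 29 pairs were called after LPS and 26 after IL-4. The part of the low contrast in the lower values was not tested. The other p38 inhibitors, Losmapimod, VX702 and Talmapimod, had 0 chemokine CREs called after LPS. Over all CREs 0% were lower and 0% higher with Losmapimod and with VX702, and 0.05% were lower and 0.08% higher with Talmapimod. The 2 CREs called higher with PH797804 after LPS lay 13.1 and 5.3 kb downstream of Ccl5 (1.17 and 0.61). After IL-4, PH797804 had 2 chemokine CREs lower and 5 higher, where 1.5% of all CREs were lower and 39.5% higher. Among the higher was the Ccl5 start CRE (0.54, SE 0.18, adjusted p = 8.39e-03, limma), which was lower after LPS. The CREs 13.1 and 5.3 kb downstream (1.16 and 1.65) and 13.9 kb upstream of Ccl5 (0.67) were higher too. Talmapimod had 1 lower and 1 higher after IL-4, where 0.39% of all CREs were lower and 0.7% higher.

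With inhibitors of PI3K and mTOR, kinases that control growth and metabolism, most of the lower CREs lay at Ccl12. BGT226 and Omipalisib, both inhibitors of PI3K and mTOR in different runs, had 5 chemokine CREs lower each after LPS. With BGT226, 4 of the 5 were at Ccl12, and the start CRE held 108 in UT, 388 at 30 min, 304 at 1 h, 464 at 2 h and 511 at 4 h, against medians of 225, 462, 552.5, 759 and 740 in the other CKIs of run 3. The log2 difference was -0.68 (SE 0.13, adjusted p = 1e-04, limma), and at UT, 1 h, 2 h and 4 h the BGT226 value lay below all others. With Omipalisib, 3 of the 5 were at Ccl12, with -0.62 at the start CRE (SE 0.13, adjusted p = 1.1e-03, limma) and -1.49 at the CRE 9.4 kb upstream. Over all CREs 2.04% were lower and 2.78% higher with Omipalisib after LPS, and the median contrast of its libraries was 6.47 against 11.2 for run 1. With AZD2014, which inhibits mTOR, 1 Ccl12 CRE was lower, 23.6 kb upstream (-0.93), where 1.17% of all CREs were lower and 0.06% higher. Apitolisib had 0 calls and PF04691502 1, and its value at the Ccl12 start CRE, like that of Apitolisib, was below the rest of the run (-0.36 and -0.41) without being called. Over all CREs 0.02% were lower and 0% higher with Apitolisib, and 0.59% were lower and 0.09% higher with PF04691502. After IL-4, the CRE 9.1 kb downstream of Ccl3 was higher with BGT226 by 0.95 (SE 0.12, adjusted p = 4.08e-12, limma), and at the Ccl3 start CRE its value lay above all other CKIs of the run in UT and at 30 min, 1 h and 2 h, by 0.45 on average. BGT226 libraries differed widely over the table too, with 2.04% of all CREs lower and 2.96% higher after LPS, and 6.43% lower and 4.57% higher after IL-4.

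After IL-4, 13 of the 31 calls were at Ccl2. With Pimasertib, an inhibitor of MEK, 6 of the 7 Ccl2 CREs and the Ccl7 start CRE were lower, where 1.32% of all CREs were lower and 0.01% higher. The Ccl2 start CRE held 55 in UT, 168 at 30 min, 43 at 1 h, 31 at 2 h and 24 at 4 h, where the other CKIs of run 6 held 74 to 161, 133 to 241, 32 to 166, 43 to 98 and 33 to 178. It lay below all of them in UT, at 2 h and at 4 h and within their range at 30 min and 1 h. The log2 difference was -0.91 (SE 0.22, adjusted p = 7.41e-03, limma), and without the UT libraries it was -0.86 and not called (adjusted p = 0.0624). The largest difference was at the CRE 2.9 kb upstream (-1.27). The other MEK inhibitors, Refametinib and Selumetinib, had 0 calls in either course, as did the ERK inhibitors GDC0994 and Ulixertinib, and the difference between Pimasertib and each of these CKIs was not tested. With Refametinib, Selumetinib, GDC0994 and Ulixertinib 0% of all CREs were lower and 0% higher in either course.

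With BMS911543, an inhibitor of JAK2, 5 chemokine CREs were lower after IL-4, where 0.85% of all CREs were lower and 0.08% higher. They were 2 at Ccl2 (24.2 and 12.2 kb upstream, -0.74 and -0.89), and 1 each at Ccl7 (3.8 kb upstream, -1.23), Ccl12 and Ccl6. With Afatinib, an inhibitor of the EGF receptor family, 5 were higher, of which 4 were at Ccl2 (0.73 to 0.85) and 1 lay 3.8 kb upstream of Ccl7 (1.06), and 1.42% of all CREs were higher and 0.72% lower. Both CKIs belong to run 1, whose median contrast was the lowest of the 6 runs (11.2). Of the remaining JAK inhibitors, Filgotinib had 1 CRE lower after IL-4, at Ccl5, and Pacritinib 1 higher after LPS. Over all CREs 1.3% were lower and 0.23% higher with Filgotinib after IL-4. With Pacritinib after LPS 0.34% were lower and 7.61% higher, and the median contrast of its libraries was 10.8. Momelotinib, Ruxolitinib and Tofacitinib had 0 calls in either course, where 0% of all CREs were lower and 0% higher.

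No chemokine CRE was called within the run for IMD0354, which was aimed at IKK2, the kinase that activates NF-kB, nor for Tanzisertib, an inhibitor of JNK, or Midostaurin. Over all CREs, too, 0% were lower and 0% higher after LPS with each of these CKIs. After IL-4 the shares were 0.03% lower and 0% higher with IMD0354, 0% and 0% with Tanzisertib, and 0.01% and 0.03% with Midostaurin. With IMD0354 the start CREs of Ccl2, Ccl7, Ccl5 and Ccl4 after LPS differed by 0.18, 0.26, -0.05 and 0.01 from the other CKIs of run 2. Talmapimod had the highest Ccl5 start CRE of all CKIs relative to its run after LPS (0.55, adjusted p = 0.0757, limma), and without PH797804 in the model this was called at the same log2 difference. For the start CREs of Ccl7 and Ccl6 no CKI was called after LPS, the lowest being Vatalanib (-0.62) and Mubritinib (-0.39). At the other start CREs the highest CKI after LPS was Filgotinib for Ccl2 (0.45) and Ccl7 (0.36), AMG208 for Ccl12 (0.47), Poziotinib for Ccl9 (0.24), Talmapimod for Ccl6 (0.38) and Ccl4 (0.49), and GSK461364 for Ccl3 (0.25), and none of these was called. After IL-4 the lowest and highest CKI were Pimasertib and Afatinib at Ccl2 (-0.91 and 0.58), Pimasertib and AZD2014 at Ccl7 (-0.68 and 0.40), BGT226 and XL413 at Ccl12 (-0.44 and 0.36), and AMG208 and Talmapimod at Ccl5 (-0.44 and 0.55). They were PH797804 and Apatinib at Ccl9 (-0.42 and 0.27), IMD0354 and Talmapimod at Ccl6 (-0.37 and 0.28), PH797804 and BGT226 at Ccl3 (-0.52 and 0.45), and AZD8186 and BGT226 at Ccl4 (-0.30 and 0.25). Of these 16 values, the 2 of Pimasertib and that of PH797804 at Ccl3 were called.

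Among the CKIs with 1 or 3 calls, Afatinib had 3 CREs lower after LPS, at Ccl9 and Ccl6 (-0.53 to -0.60), and Pimasertib 3, among them the CRE 24.2 kb upstream of Ccl2 (-0.82). With Pimasertib 1.02% of all CREs were lower and 0.03% higher after LPS. The Ccl5 start CRE was lower with Mubritinib (-0.52, adjusted p = 0.0352, limma). The CRE 23.6 kb upstream of Ccl12 was higher with AMG208 (0.88), which inhibits MET. With AZD8186 the CRE 4.8 kb upstream of Ccl9 was lower (-0.84). Over all pairs of CRE and CKI after LPS, 0.43% were lower and 0.779% higher. The shares of all CREs with Afatinib, Mubritinib, AMG208 and AZD8186 alone after LPS are not given here.

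**Figure D4:**
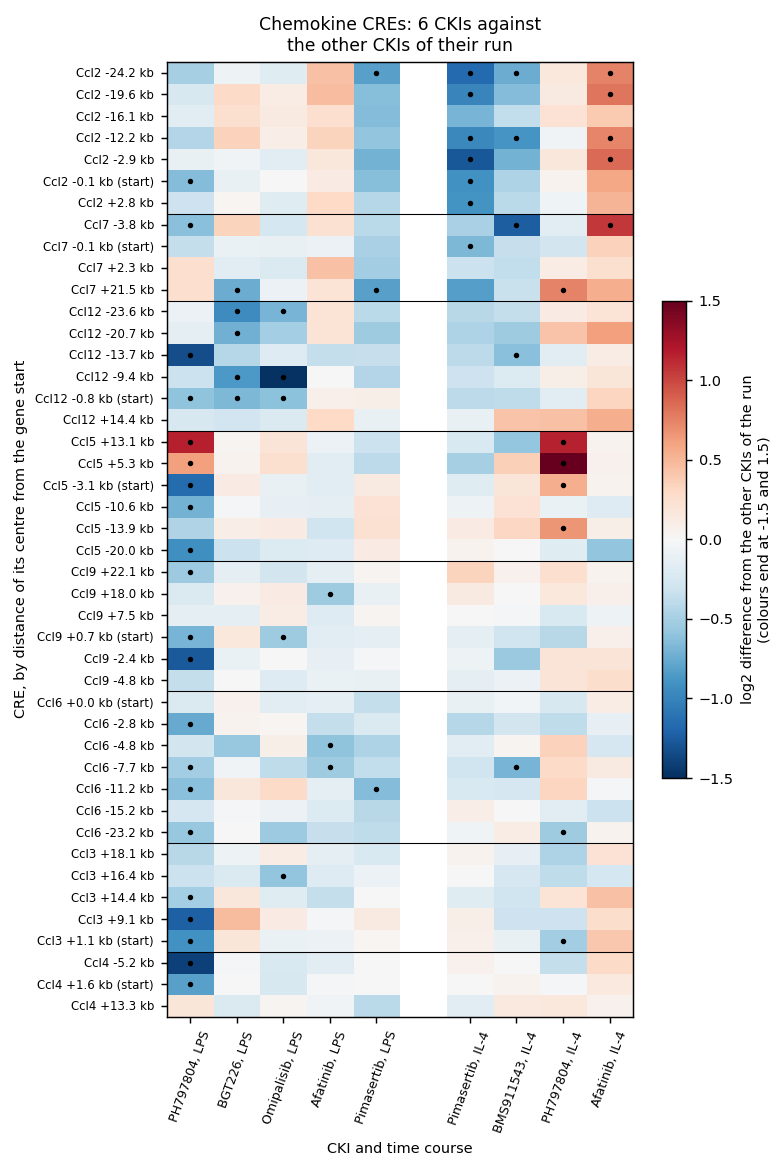
Log2 difference of (value + 5) from the other CKIs of the same run at the 44 chemokine CREs (rows) for the CKIs with 3 or more calls, in the LPS course (left) and the IL-4 course (right). A dot marks a CRE that passed the test. The dots of PH797804 after LPS (21) spread over all 8 genes, those of BGT226 and Omipalisib gather at Ccl12, and after IL-4 those of Pimasertib, BMS911543 and Afatinib gather at Ccl2 and Ccl7.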

How the data were processed

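H3K27ac ChIP-seq was performed on 564 BMDM libraries, 75 UT, 249 LPS and 240 IL-4. The authors trimmed reads to 51 bp, mapped them to mm10 with ShortStack, counted them over CREs defined by ATAC-seq peaks and scaled each library on invariant peaks. The labels also name Bowtie and SAMtools. The deposited values are the authors' normalized read counts rounded to whole numbers and were treated as a score, so no count model was applied to them. The files' rounding leaves depth as an estimate. All value columns were mapped to a sample by title.

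CREs were placed against RefSeq starts (GRCm38.p6). Tests used limma 3.58.1 (R 4.3.3) with a mean trend on log2(value + 5), on CREs with a mean of at least 10, and Benjamini-Hochberg adjustment over all CREs. The pseudocount of 5 understates the change of low CREs. Time courses used a moderated F-test, called at an adjusted p under 0.01 and a log2 difference over 1. CKIs were called at an adjusted p under 0.05 and a log2 difference over 0.5, with the adjustment within each CKI. The fits of the LPS time course and of CKIs within a run were tested on simulated data. The UT libraries are titled 0 h, while another label reads 4 h. Named in the text were the start CREs, the 3 largest rises and falls per course, the CKIs with most calls and fixed inhibitor families. The members and lists were chosen with earlier results of these data known. Alternatives changed the pseudocount, filter, threshold, scaling, window, libraries and covariates. Replicates of DMSO groups had equal values at 0% to 4.55% of chemokine CREs and were counted as separate samples.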

Additional observations from a re-analysis of the deposited data

Results flagged for a closer look

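At 12 chemokine CREs both IL-4 libraries of an early time lay above both UT libraries and both libraries of a later time lay below them. The difference between the times was not tested, and each group held 2 libraries. Such courses were not counted over all CREs, so whether they are frequent among the chemokine CREs cannot be read. Of these, 5 belonged to Ccl2. The highest and lowest log2 differences from UT were 1.90 and -0.87 at the CRE 19.6 kb upstream of Ccl2, 1.93 and -0.61 at 16.1 kb upstream, 1.58 and -0.98 at 12.2 kb upstream, 1.25 and -0.72 at the start CRE, and 1.24 and -0.47 at 2.8 kb downstream, in each case at 30 min and 4 h. The CRE 3.8 kb upstream of Ccl7 took the same course, with 1.48 at 30 min and -1.02 at 4 h. At Ccl3 they were 0.98 and -0.49 (16.4 kb downstream), 0.72 and -0.91 (14.4 kb downstream) and 0.15 and -1.11 (start CRE), at Ccl4 0.80 and -0.83 (start CRE) and 2.00 and -0.76 (13.3 kb downstream), and at the CRE 7.7 kb upstream of Ccl6 0.65 and -1.12, in each case with the highest value at 30 min and the lowest at 2 h.

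The CRE 7.5 kb downstream of Ccl9 took the opposite order after IL-4, below UT at 1 h and 2 h and above it at 4 h (0.17 and -0.34). After LPS, both libraries lay above UT at some times and below it at others at 2 CREs. The CRE 18 kb downstream of Ccl9 was above UT at 1 h (0.26) and below it at the other times (lowest -0.96), and the CRE 11.2 kb upstream of Ccl6, which was called higher, was below UT at 2 h (1.24 and -0.24).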

How the results depend on the processing

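Of 2787 values recomputed for named CREs and CKIs, 2636 kept their direction and side of the threshold, 95 were no longer called, 30 became called and 26 reversed. With the window set at 10 kb, 17 of 22 CREs were regulated by LPS, 12 of 22 by IL-4 and 17 of 22 differed between them, and at 50 kb 42 of 52, 30 of 51 and 40 of 51. Leaving out 1 library gave 28 to 36, 22 to 24 and 32 to 36 CREs. Against DMSO, leaving out all DMSO libraries of 1 replicate number gave 554 to 641 pairs after LPS and 646 to 698 after IL-4. With the replicate block the counts were 36, 23 and 34, no named call changed, and same-numbered libraries did not deviate together (r -0.0873 to 0.0664), so the number does not pair them. Against DMSO after LPS, quantile normalization gave 198 pairs (30 higher), contrast as a covariate 146 (87 higher) and CKIs against the mean of all compounds 113 (29 higher). Rescaling gave 994 (129 higher). After IL-4 these were 331 (94), 423 (71), 113 (44) and 1035 (339). Within the run, contrast as a covariate gave 28 pairs after LPS, and 31 (10 higher) after IL-4 where quantile normalization gave 42 (12 higher). The covariate and leaving out PH797804 (746, 786, 29 and 26 pairs) were chosen after seeing the data. Reversed values after LPS against DMSO were, with rescaling, Ccl2 -0.0594 and Ccl3 -0.09 (GSK461364) and Ccl4 -0.15 (Talmapimod); with quantile normalization, Ccl2 -0.0003 and Ccl3 -0.0108 (GSK461364); without UT libraries, Ccl2 -0.057 (GSK461364), Ccl5 -0.10 and Ccl4 -0.0338 (Talmapimod); with the covariate, Ccl7 0.23 (MK2461) and Ccl12 0.12 (Refametinib); without a DMSO replicate, Ccl2 -0.0006 to 0.0997 and Ccl3 -0.0149 to 0.0587 (GSK461364); against all compounds, Ccl7 0.43 (MK2461), Ccl12 0.59 and Ccl9 0.46 (Refametinib). After IL-4 they were, with rescaling, Ccl6 -0.16 (Talmapimod) and Ccl4 -0.15 (MK2206); with quantile normalization, Ccl9 0.052 (IMD0354); with the covariate, Ccl5 -0.0891 (Ruxolitinib), Ccl9 0.0282 (IMD0354) and Ccl4 -0.027 (MK2206); against all compounds, Ccl2 0.54, Ccl7 0.44 and Ccl12 0.51 (GSK2110183), Ccl5 -0.58 (Ruxolitinib) and Ccl9 0.42 (IMD0354). The cause was not tested. Most CKI conditions hold 1 library, so a CKI difference rests on its few libraries.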
